A study of Mus musculus with 6 samples.

Results

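Interleukins are secreted messengers between immune cells, and many act through a receptor built from a private chain that binds the ligand and a shared chain that carries the signal inward. The genes described here are the interleukins and interleukin receptors outside the IL-1 core: every gene whose symbol starts with Il and a digit, without Il1a, Il1b, Il1rn, Il18, Il18bp, Il1r1, Il1r2 and Il1rap. The symbols gave 75 members among the 50600 genes of the count table. Of these, 52 had at least 1 count in some library, 27 had enough counts to be tested, and 23 had none. RNA came from macrophages sorted as live CD45+F4/80+CD64+ cells from the pancreatic islets and from the epididymal white fat (EpiWAT) of chow-fed C57BL/6J males aged 12 weeks, with no other treatment. Each tissue gave 3 libraries, which carry the numbers 2, 4 and 6. The design text calls the material autologous, and same-numbered libraries share a batch label. The sources used here do not say whether animals were pooled.

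Most of these receptors belong to families that share a chain: the common gamma chain (Il2rg) serves IL-2, IL-4, IL-7, IL-15 and IL-21, gp130 (Il6st) serves IL-6, IL-11 and IL-27, and Il10rb serves IL-10 and IL-22. The chains signal through JAK kinases and STAT factors, while receptors of the IL-1 family signal through Myd88 and IRAK proteins. In macrophages, IL-4 and IL-13 are known to drive alternative activation, and IL-10 restrains inflammatory gene expression.

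Total counts were 4089980 to 6923475 in the islet libraries and 7450890 to 9235591 in the fat libraries, so 3 counts stood for 0.404 to 0.860 CPM (counts scaled to library size, with TMM factors) in islet and 0.284 to 0.398 CPM in fat. All 9 macrophage markers checked, such as Adgre1 (F4/80), Fcgr1 (CD64) and Csf1r, had counts in every library. Their levels were not even: 1 was higher in islet (Cx3cr1, log2 difference 4.71). A further 3 were lower (Mertk at -3.05, Itgam at -2.12 and Lyz2 at -1.33), and 5 did not pass, these 3 examples among them. Summed heat shock RNA (7 genes) was 111911 CPM in islet library 2, 120951 in library 4 and 7265 in library 6, against 2255 to 2775 CPM in fat, so islet libraries 2 and 4 stood apart, and all 7 genes rose. Endocrine markers (5 of 5 higher in islet) summed to 2964 to 8620 CPM in islet and 0 to 4.91 CPM in fat. Fibroblast markers (4 of 4 lower in islet) summed to 0 to 2.58 CPM in islet and 72.1 to 310 CPM in fat, and adipocyte markers (4 of 4 lower) to 0 in every islet library and 14.4 to 44.4 CPM in fat. The T cell genes Cd3d, Cd3e, Cd3g, Trac and Trbc2 had no count in any islet library. In bulk RNA, fewer cells of a type and less RNA per cell cannot be told apart.

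Across the tested members, 6 were higher in islet macrophages, 8 were lower and 13 did not pass (quasi-likelihood test of edgeR, p adjusted by Benjamini-Hochberg over 12152 genes, threshold 0.05). Over all genes tested, 8.97% were higher and 10.5% lower. Those higher were Il2ra, Il7r, Il21r, Il10ra, Il12rb2 and Il12b, and those lower were Il1rl1, Il18r1, Il17rd, Il3ra, Il6ra, Il6st, Il16 and Il6. The median log2 difference of the tested members was 0.03, beside 0.01 over all genes tested. In 9 members every islet library was above every fat library and in 10 every islet library was below, against 18.2% and 22.3% of all genes tested. Members enter the test through the tissue where they are high, so these counts describe the tested genes and not all members.

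The counts moved with the libraries used, for the members as for all genes tested. Without fat replicate 2, 4 members were higher and 1 lower (3.92% and 4.71% of all genes tested). Without fat replicate 4, 4 were higher and 2 lower (3.66% and 5.39%), and without fat replicate 6, 3 were higher and 1 lower (4.21% and 5.96%). Every fat library left out therefore lowered both the members' counts and the shares over all genes. Without islet replicate 2, 4 were higher and 5 lower (5.8% and 8.39%), without islet replicate 4, 6 and 9 (10.8% and 11.7%), and without islet replicate 6, 8 and 11 (12.7% and 15.6%). Leaving out islet libraries 2 and 4 together kept only islet library 6, so that fit holds no spread within islet. Only its log2 differences are given. DESeq2 called 7 higher and 8 lower (11.8% and 14.3%), limma voom 5 and 8 (9.18% and 12.4%), and edgeR with the replicate number as a block 5 and 9 (7.27% and 9.08%). With no filter on low counts 6 were higher and 11 lower (6.52% and 8.24%), and with a filter of 1 CPM 6 and 9 (9.84% and 11.7%).

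**Figure D1:**
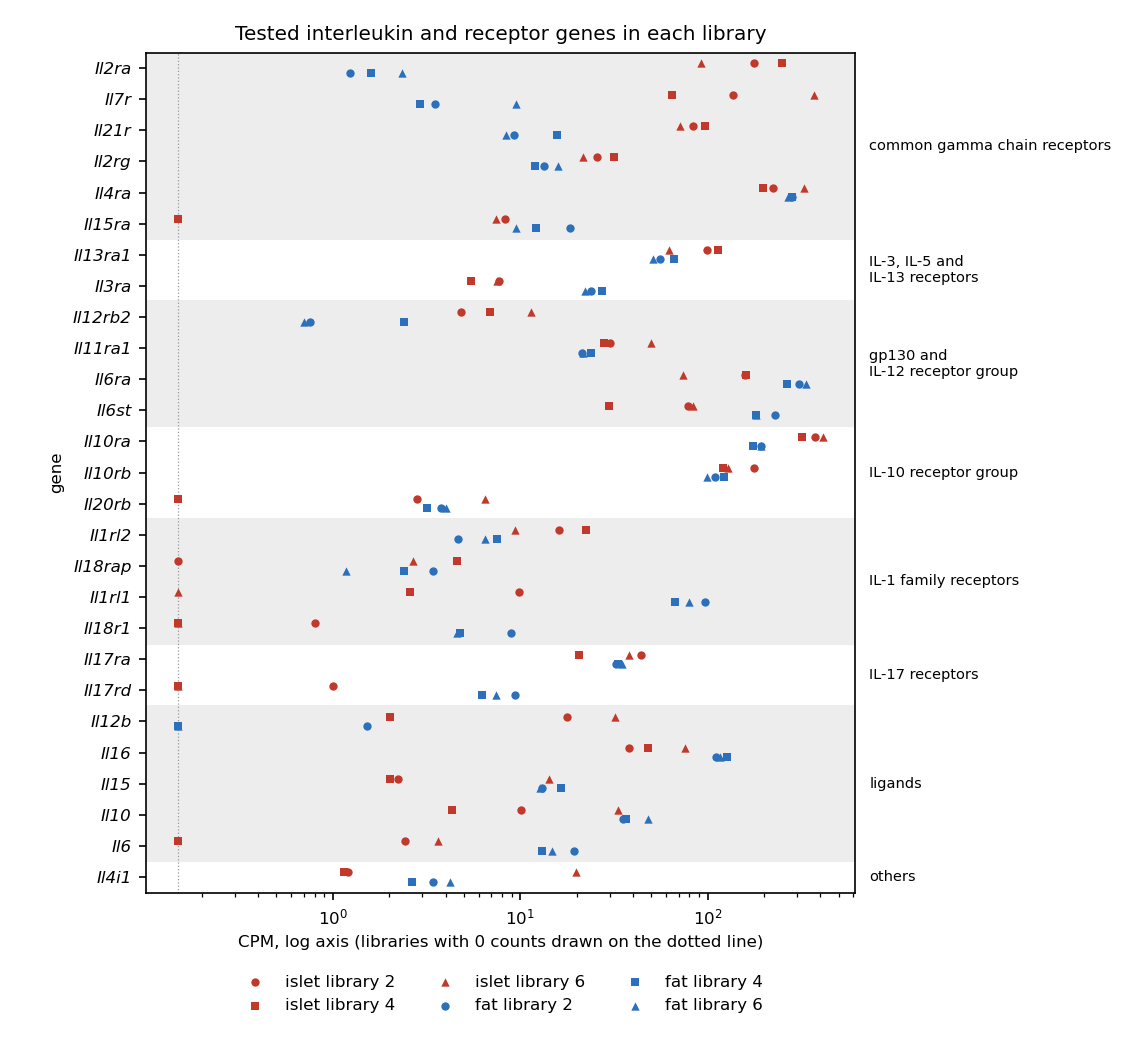
CPM (log axis) of the 27 tested members in each of the 6 libraries, grouped by role, with islet libraries in red and fat libraries in blue, and libraries without counts drawn on the dotted line. Il2ra, Il7r and Il21r separate the tissues upward in islet, and Il1rl1, Il17rd and Il18r1 separate them downward.

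In the common gamma chain group, 3 of the 6 tested receptors rose (Il2ra, Il7r and Il21r), 0 fell and 3 did not pass (Il2rg, Il4ra and Il15ra). None of these 6 had an unadjusted p under 0.05 in the downward direction in the edgeR fit behind the printed values, and DESeq2 and limma voom called 0 lower. Il2rb, which was not tested in that fit, is described below.

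Il2ra encodes CD25, the private alpha chain of the IL-2 receptor, which raises its affinity for the ligand. In the order of libraries 2, 4 and 6, used throughout, it stood at 176, 251 and 92.8 CPM in islet and at 1.23, 1.59 and 2.35 CPM in fat. The lowest islet library was far above the highest fat library. The fitted difference was 6.64 ± 0.49 on the log2 scale (SE, n = 3 per tissue), a 100.04-fold increase with an edgeR adjusted p = 1.04e-04, and 5.67 without islet libraries 2 and 4. The gene (ENSMUSG00000026770.5) lies on GRCm38 chromosome 2, 11642807 to 11693193.

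The beta chain that the IL-2 and IL-15 receptors share, Il2rb, did not follow. It had no count in any islet library and 22, 10 and 18 counts in fat libraries 2, 4 and 6, too few to be tested under the filter. Setting each islet library to the floor of 3 counts, it was at least 2.96-fold lower in islet. It was called lower in edgeR with no filter, with the 1 CPM filter, without mitochondrial ribosomal RNA and without islet replicate 4 or 6. Beside Il2rb, the NK list (4 genes) summed to at most 0.403 CPM in islet and 0.663 to 2.55 CPM in fat. The T cell list (8 genes) summed to 6.59 to 16.7 CPM in islet and 12.6 to 20.4 CPM in fat, most of it Cd4. The part of these cells in the Il2rb counts was not tested. Il2rg, the gamma chain itself, stood at 25.8, 31.5 and 21.6 CPM in islet and 13.3, 11.9 and 15.999 CPM in fat. Its ranges did not overlap, and its log2 difference of 0.93 ± 0.30 had an edgeR adjusted p = 0.0625. DESeq2 called it higher (adjusted p = 0.0359), and so did edgeR without islet replicate 6 (0.0269). Over its alternatives in edgeR, DESeq2 and limma voom, the adjusted p was 0.0269 to 0.257. Annotated exons of a second gene cover 30.5% of the exonic length of Il2rg on the same strand, which makes its counts uncertain.

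Il7r, the private chain of the IL-7 receptor and, with Crlf2, of the receptor for TSLP, stood at 136, 64.2 and 371 CPM in islet and at 3.50, 2.92 and 9.53 CPM in fat. Islet library 6 was highest and library 4 lowest, and all 3 were above fat. The gene rose by 5.16 ± 0.76 on the log2 scale (35.8-fold, edgeR adjusted p = 0.00225). The log2 difference was 4.23 without islet replicate 6, 5.87 without fat replicate 6 and 6.04 without islet libraries 2 and 4. The gene lies on chromosome 15, 9505788 to 9530176. The order of the islet libraries differed between the 2 genes, since library 6 was the lowest of the 3 for Il2ra. Crlf2, the partner chain, named after its values were seen, stood at 47.4 to 62.5 CPM in islet and 39.6 to 63.2 CPM in fat (edgeR adjusted p = 0.702).

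Il21r, the private chain for IL-21, stood at 83.7, 96.6 and 71.3 CPM in islet and at 9.27, 15.7 and 8.35 CPM in fat. Its islet libraries were close together, and it rose by 2.92 ± 0.32 on the log2 scale (7.56-fold, edgeR adjusted p = 5.36e-04). All 3 increases passed without each of the 6 libraries, with edgeR adjusted p values of at most 0.00170 for Il2ra, 0.0186 for Il7r and 0.00660 for Il21r. Without islet libraries 2 and 4 the log2 differences stayed positive, at 5.67 for Il2ra, 6.04 for Il7r and 2.61 for Il21r. Beside these receptors, whose genes lymphocytes also express, the T cell list (8 genes, 5 of them without counts in islet) summed to 6.59 to 16.7 CPM in islet and 12.6 to 20.4 CPM in fat, most of it Cd4. The list for type 2 innate lymphoid cells (6 genes) summed to 33.1 to 81.6 CPM in islet and 22.4 to 29.3 CPM in fat, so its sum was higher in every islet library. Within it, Rora stood at 74.0, 26.9 and 25.1 CPM in islet and 17.5 to 20.1 CPM in fat, Il13 had 6, 2 and 0 counts in islet and none in fat, and Gata3 had none in islet and 10, 9 and 10 counts in fat. The part of these cells in the result was not tested.

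The sequences before the starts of these 3 receptors are shown because the genes rose together. They are the bases before the RefSeq transcript start on GRCm38.p6, 5′ to 3′ on the gene's strand, without bases inside an annotated exon. For Il7r that start, 9529876, lies inside the annotated gene, whose 5′ end is at 9530176. An exon of Il7r covers 86 bases of its window, so the 164 bases shown lie within the gene. Capitals mark AGGAAGT, the core bound by Ets factors such as PU.1, on either strand (ACTTCCT on the other).
Il2ra (chr2:11642542-11642791, plus strand): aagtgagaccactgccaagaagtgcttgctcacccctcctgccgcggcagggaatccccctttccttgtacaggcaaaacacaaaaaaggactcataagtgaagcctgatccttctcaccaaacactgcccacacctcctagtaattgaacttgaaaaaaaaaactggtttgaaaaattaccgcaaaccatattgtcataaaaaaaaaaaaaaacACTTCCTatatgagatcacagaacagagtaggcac
Il7r (chr15:9529877-9530040, minus strand): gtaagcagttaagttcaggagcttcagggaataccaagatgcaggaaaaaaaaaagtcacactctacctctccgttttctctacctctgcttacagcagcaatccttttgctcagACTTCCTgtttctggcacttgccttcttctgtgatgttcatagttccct
Il21r (chr7:125603179-125603428, plus strand): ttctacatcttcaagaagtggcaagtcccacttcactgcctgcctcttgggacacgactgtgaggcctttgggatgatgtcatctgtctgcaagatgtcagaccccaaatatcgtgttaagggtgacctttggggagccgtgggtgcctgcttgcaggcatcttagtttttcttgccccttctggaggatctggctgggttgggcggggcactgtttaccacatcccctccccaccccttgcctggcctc
AGGAAGT occurred in the windows of Il2ra and Il7r and not in that of Il21r. Among all 32851 RefSeq windows of 250 bases before a start, 7.69% held it. It also occurred before Il3ra and Il6ra, which fell. In all, 2 of 5 windows of higher members, 2 of 13 of lower members and 7 of 29 of tested members held it. The STAT motif TTCNNNGAA, which is its own reverse complement, was found in 7.02% of windows. Among called members it was in those of Il7r and Il12rb2, which rose, and Il18r1, which fell. The AP-1 motif TGANTCA was found in 6.75% and in none of the 3 receptors, but before Il16 and Il6, which fell. None of these motifs contains another, and a match describes letters and not a bound site.

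In the edgeR fit behind the printed values, no chain of the receptor for IL-4 and IL-13 passed. Il4ra, which binds IL-4 with either Il2rg or Il13ra1, stood at 224, 199 and 325 CPM in islet and at 283, 283 and 268 CPM in fat (log2 difference -0.16 ± 0.26, edgeR adjusted p = 0.726). The fat range lay inside the islet range. Il13ra1 stood at 99.4, 114 and 62.4 CPM in islet and 55.4, 65.9 and 51.4 CPM in fat, with an edgeR adjusted p = 0.131 and 0.0136 without islet replicate 6 (0.0136 to 0.351 with any 1 library left out). Its log2 difference was 0.67 with all libraries and 0.04 without islet libraries 2 and 4. Il15ra, the private chain for IL-15, had no count in islet library 4 and 8.26 and 7.41 CPM in libraries 2 and 6, against 18.5, 12.2 and 9.53 CPM in fat (edgeR adjusted p = 0.351). Il15, the ligand of Il15ra, was among the tested ligands and stood at 12.7 to 16.5 CPM in fat. Other ligands of the gamma chain receptors and IL-13 had few or no counts: Il2, Il21 and Il9 had none in any library, Il7 had 5 and 1 counts in fat libraries 2 and 4, Il4 had 10 and 1 counts in fat libraries 4 and 6, and Il13 had 6 and 2 counts in islet libraries 2 and 4. These ligands were named after their values were seen.

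In the group of IL-3, IL-5 and IL-13 receptors, Il3ra fell and Il13ra1 did not pass, while Il5ra and Il13ra2 had no counts. Il3ra, the private chain for IL-3, stood at 7.66, 5.45 and 7.54 CPM in islet and at 24.02, 27.5 and 22.1 CPM in fat, with no overlap. It fell by 1.82 ± 0.33 (log2, SE, n = 3 per tissue; edgeR adjusted p = 0.00540), and at most 0.0338 with any 1 library left out. A chain that carries its signal, Csf2rb, shared with IL-5 and GM-CSF, stood at 97.0, 68.5 and 374 CPM in islet and 83.4, 81.2 and 123 CPM in fat (edgeR adjusted p = 0.322), so islet library 6 alone was above the fat range. The log2 difference of Csf2rb was 1.88 without islet libraries 2 and 4 and -0.22 without islet replicate 6. Its edgeR adjusted p was 0.105 to 0.594 with any 1 library left out. Its counts are uncertain because Csf2rb2 is a near-identical copy. Csf2rb2, named after its values were seen, stood at 81.0, 71.1 and 464 CPM in islet and 49.7, 42.5 and 65.4 CPM in fat, with no overlap. Its log2 difference was 1.97 ± 0.68 (edgeR adjusted p = 0.0761). It was called higher in DESeq2, with no filter and without islet replicate 4.

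**Figure D2:**
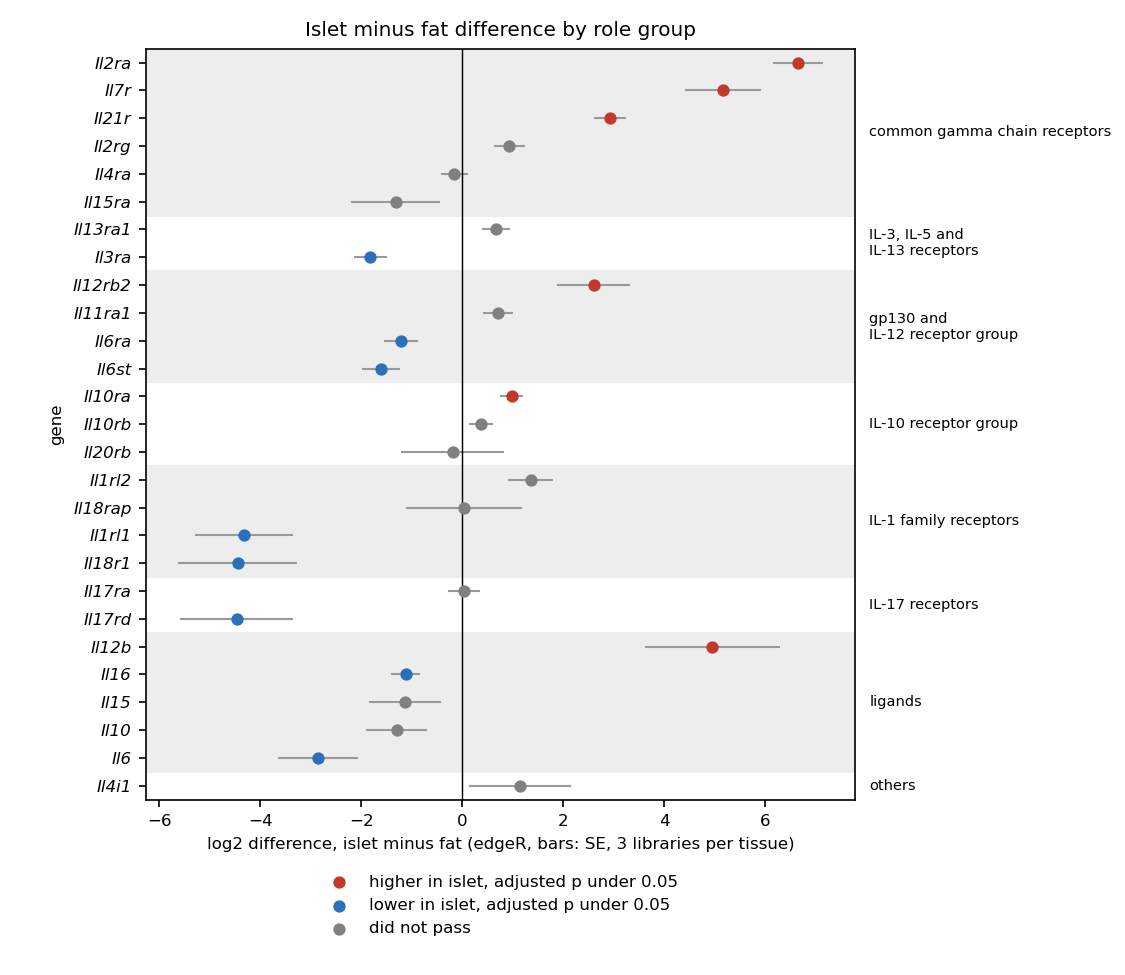
Log2 difference, islet minus fat, of the 27 tested members by role group (points: edgeR estimates, bars: SE, 3 libraries per tissue). Red points passed upward, blue points downward and grey points did not pass, and the common gamma chain group holds Il2ra at 6.64, Il7r at 5.16 and Il21r at 2.92.

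In the group of gp130 and IL-12 receptors, 2 of 4 tested members fell (Il6ra and Il6st), 1 rose (Il12rb2) and 1 did not pass (Il11ra1). Both chains of the IL-6 receptor were lower in islet macrophages. Il6ra, which binds IL-6, stood at 158, 160 and 74.2 CPM in islet and at 309, 264 and 334 CPM in fat. Il6st, the gp130 chain that carries the signal, stood at 79.0, 29.8 and 83.3 CPM in islet and at 228, 181 and 180 CPM in fat. Neither gene's ranges overlapped, and the lowest islet library was number 6 for Il6ra and number 4 for Il6st.

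Il6ra fell by 1.21 ± 0.33 and Il6st by 1.61 ± 0.38 on the log2 scale (SE), with edgeR adjusted p = 0.0322 and 0.0182. Il6ra lies on chromosome 3, 89864059 to 89913196, and Il6st on chromosome 13, 112464070 to 112510086. Il6ra missed the threshold when islet replicate 2 (edgeR adjusted p = 0.0575) or any fat replicate was left out (0.114, 0.0733 and 0.112), and Il6st when any fat replicate was left out (0.0809, 0.0506 and 0.0571). Their log2 differences stayed between -1.39 and -0.94 and between -1.85 and -1.28 with any 1 library left out, and Il6ra stood at -2.11 without islet libraries 2 and 4. Lifr, a chain that pairs with gp130 for LIF and is outside the family, stood at 185, 320 and 40.3 CPM in islet and 736, 641 and 788 CPM in fat (edgeR adjusted p = 0.0516) and was named after its values were seen. It was called lower in DESeq2, in limma voom, with no filter, with the 1 CPM filter, with the replicate number as a block and without islet replicate 4 or 6.

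Il12rb2, the signalling chain of the IL-12 receptor, was low in both tissues, at 4.84, 6.88 and 11.5 CPM in islet and 0.756, 2.39 and 0.706 CPM in fat. The ranges did not overlap, and it rose by 2.60 ± 0.73 on the log2 scale (edgeR adjusted p = 0.0365), and by 3.30 without fat replicate 4. The call did not hold with the replicate number as a block (edgeR adjusted p = 0.0683), without islet replicate 6 (0.0732) or without fat replicate 2 or 6 (0.158 and 0.133). Exons of Serbp1 on the opposite strand cover 40.0% of its exonic length, and the sources used here do not give the strand setting of the counting. Its partner Il12rb1 had 4, 1 and 0 counts in islet and 11, 0 and 5 counts in fat, and Il23r had none. Il11ra1, the private chain for IL-11, stood at 30.0, 28.1 and 50.0 CPM in islet and 21.3, 23.9 and 21.5 CPM in fat (edgeR adjusted p = 0.142, and 0.0740 to 0.368 with any 1 library left out). Its log2 difference was 0.70 with all libraries and 1.09 without islet libraries 2 and 4. Il27ra, the private chain for IL-27, had 4, 0 and 0 counts in islet and 63, 6 and 62 counts in fat. It was too sparse to be tested under the filter, and was called lower in edgeR with no filter.

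In the IL-10 receptor group 1 of 3 tested members rose, 0 fell and 2 did not pass. None had an unadjusted p under 0.05 downward in edgeR, and DESeq2 and limma voom called 0 lower. Il10ra, the private chain for IL-10, stood at 373, 321 and 412 CPM in islet and at 194, 175 and 193 CPM in fat. The islet libraries were all above the fat libraries, and the difference was 0.98 ± 0.23 on the log2 scale (1.97-fold, edgeR adjusted p = 0.0195). It missed the threshold when islet replicate 2 (edgeR adjusted p = 0.0538) or any fat replicate was left out (0.104, 0.132 and 0.0899), although the difference stayed between 0.86 and 1.06. Il10rb, the shared chain, stood at 177, 121 and 129 CPM in islet and 110, 122 and 98.8 CPM in fat (edgeR adjusted p = 0.341). Exons of Gm21970 on the same strand cover 14.9% of its exonic length, which makes its counts uncertain. Il20rb stood at 2.82, 0 and 6.47 CPM in islet and 3.18 to 4.00 CPM in fat (edgeR adjusted p = 0.919).

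Levels of different genes can be set side by side only per length, as CPM per kb of annotated exon. On that scale Il10ra was the highest of the tested members in both tissues, at 105 ± 13.1 in islet and 53.6 ± 2.99 in fat (SD, n = 3). Il4ra followed in both, at 41.6 ± 11.2 in islet and 46.3 ± 1.45 in fat. In fat the next levels were Il6ra at 35.007 ± 4.09, Il10 at 30.5 ± 5.26 and Il10rb at 29.0 ± 3.09 CPM per kb. The lowest library of Il4ra in fat, at 44.7, was above the highest of Il6ra, at 38.7, while Il6ra, Il10 and Il10rb overlapped. In islet the places after Il10ra were held by Il4ra, Il7r (40.9 ± 34.4), Il10rb (37.4 ± 7.86), Il2ra (30.3 ± 13.8) and Il21r (25.2 ± 3.81). Each overlapped its neighbour in that order, except that every islet library of Il10ra was above every one of Il4ra.

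**Figure D3:**
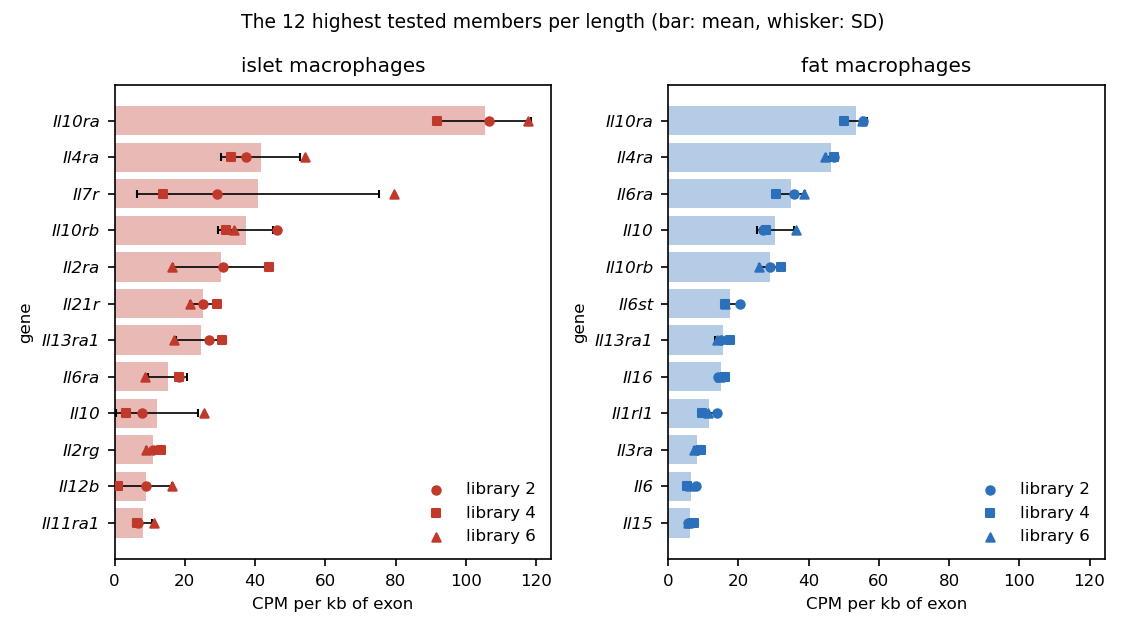
CPM per kb of annotated exon of the 12 highest tested members in islet and in fat macrophages (bars: mean, whiskers: SD, points: the 3 libraries). Il10ra leads in both tissues, and Il7r, Il2ra and Il21r stand among the first 6 in islet and are not among the 12 in fat.

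Among receptors of the IL-1 family, 2 of 4 tested members fell (Il1rl1 and Il18r1), 0 rose and 2 did not pass. None was higher in edgeR after adjustment, 1 had an unadjusted p under 0.05 in that direction (Il1rl2), and DESeq2 called that gene higher (adjusted p = 0.0285). Il1rl1 encodes ST2, the receptor for the alarmin IL-33. It stood at 9.88, 2.58 and 0 CPM in islet and at 96.7, 67.4 and 79.2 CPM in fat. Islet library 6 had no count, and the highest islet library was below the lowest fat library. Il1rl1 fell by 4.32 ± 0.97 (log2, SE; edgeR adjusted p = 0.0152), with 0.0633 and 0.0542 without fat replicate 2 or 6. Its log2 difference was -6.37 without islet replicate 2 and -3.64 without islet replicate 6. Without islet libraries 2 and 4 no islet count was left, and the fitted -12.45 then depends on the prior count.

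Il18r1, the receptor chain that binds IL-18, had 4, 0 and 0 counts in islet and stood at 8.98, 4.78 and 4.59 CPM in fat. It fell by 4.45 ± 1.17 on the log2 scale (edgeR adjusted p = 0.0295), but had 0.168, 0.0902 and 0.0854 without fat replicates 2, 4 and 6. The size rested on the 4 counts of islet library 2: it was -3.72 without islet replicate 6, and without islet replicate 2, or libraries 2 and 4, no islet count was left and the fitted -8.53 and -8.73 depend on the prior count. Its partner Il18rap stood at 0, 4.59 and 2.69 CPM in islet and 3.40, 2.39 and 1.18 CPM in fat (edgeR adjusted p = 0.987). Il1rl2, the receptor for the IL-36 ligands, stood at 16.1, 22.4 and 9.43 CPM in islet and 4.63, 7.56 and 6.47 CPM in fat, above fat in every islet library. Its log2 difference was 1.35 ± 0.44 (edgeR adjusted p = 0.0641), and 0.53 without islet libraries 2 and 4. The edgeR adjusted p was 0.0138 without islet replicate 6, and 0.0138 to 0.242 with any 1 library left out. Il1rapl1 and Il1rapl2 had no counts. Cells other than macrophages carry ST2 and the IL-18 receptor. Beside these 2 decreases, the mast cell list (4 genes) summed to 0 to 1.41 CPM in islet and 3.41 to 4.54 CPM in fat. The NK list (4 genes) summed to at most 0.403 CPM in islet and 0.663 to 2.55 CPM in fat. The T cell list (8 genes) summed to 6.59 to 16.7 CPM in islet and 12.6 to 20.4 CPM in fat, most of it Cd4. The type 2 innate lymphoid list given above was higher in islet as a sum and held Gata3 counts only in fat. Their part in the result was not tested.

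Il1rl1 is known to be transcribed from a distal and a proximal promoter, and gene counts do not separate them. The bases before its 2 RefSeq starts are shown for that reason, with the same marking as above.
Il1rl1, first start (chr1:40429320-40429569, plus strand): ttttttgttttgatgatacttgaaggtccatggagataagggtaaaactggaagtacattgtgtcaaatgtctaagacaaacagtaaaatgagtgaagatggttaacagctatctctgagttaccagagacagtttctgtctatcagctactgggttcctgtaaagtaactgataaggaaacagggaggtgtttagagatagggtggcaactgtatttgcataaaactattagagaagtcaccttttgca
Il1rl1, second start (chr1:40439379-40439626, plus strand): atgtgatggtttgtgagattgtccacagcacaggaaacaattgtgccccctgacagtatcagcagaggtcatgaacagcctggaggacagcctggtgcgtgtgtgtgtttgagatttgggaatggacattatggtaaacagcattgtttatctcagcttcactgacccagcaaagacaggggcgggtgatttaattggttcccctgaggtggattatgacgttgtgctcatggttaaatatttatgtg
Neither window held AGGAAGT, TTCNNNGAA or TGANTCA. The 4 tested members of the family lie side by side on chromosome 1 with no protein-coding gene between them, in the order Il1rl2, Il1rl1, Il18r1 and Il18rap. Il1rl1 ends at 40465415 and Il18r1 starts at 40465552 on the same strand, 136 bases further on. The neighbours Il1rl1 and Il18r1 both fell, and the outer genes Il1rl2 and Il18rap did not pass. At 2 other pairs of neighbours only 1 gene was called: Il2ra rose beside Il15ra, which starts 12096 bases after it on chromosome 2, and Il21r rose beside Il4ra, which ends 23954 bases before it on chromosome 7.

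Of the IL-17 receptors, 1 of 2 tested members fell. Il17ra, the chain shared by the IL-17 receptors, stood at 44.1, 20.6 and 37.9 CPM in islet and 32.3, 33.2 and 35.1 CPM in fat, and its log2 difference of 0.03 ± 0.31 changed sign with several settings, all with edgeR adjusted p values of at least 0.431. Il17rd, also known as a brake on growth factor signalling, stood at 1.01, 0 and 0 CPM in islet and at 9.36, 6.24 and 7.41 CPM in fat. It fell by 4.47 ± 1.12 on the log2 scale (edgeR adjusted p = 0.0242), but had 0.121, 0.0782 and 0.0867 without fat replicates 2, 4 and 6. Its only islet counts were 5 in library 2: the log2 difference was -3.74 without islet replicate 6, and without islet replicate 2, or libraries 2 and 4, the fitted -8.85 and -9.05 depend on the prior count. Fibroblast markers in fat summed to 310, 256 and 72.1 CPM in libraries 2, 4 and 6, and their part in the result was not tested.

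Few ligand genes were detected at testable levels: 5 of 35, of which 1 rose (Il12b), 2 fell (Il6 and Il16) and 2 did not pass (Il10 and Il15). Il12b encodes p40, the subunit shared by IL-12 and IL-23. It stood at 17.7, 2.01 and 32.2 CPM in islet and had 16, 0 and 0 counts in fat, or 1.51, 0 and 0 CPM. It rose by 4.95 ± 1.33 on the log2 scale (edgeR adjusted p = 0.0320), with islet library 4 close to fat library 2. Its size rested on few libraries: it was 4.16 without islet replicate 6 and 5.71 without islet libraries 2 and 4, and without fat replicate 2 no fat count was left and the fitted 9.80 depends on the prior count. The call was lost in DESeq2 (adjusted p = 0.0753), in limma voom (0.0505) and without islet replicate 2 (0.0760) or fat replicate 4 or 6 (0.112 and 0.101). Its partners Il12a and Il23a, named after their values were seen, had 0, 0 and 6 and 4, 1 and 2 counts in islet, and Il23a had none in fat. Dendritic cells are another known source of p40. Their list (5 genes, 2 of 4 tested lower in islet and 0 higher) summed to 8.67 to 12.3 CPM in islet and 77.8 to 94.9 CPM in fat, of which Cd209a gave 53.9 to 70.3 CPM. Within it, Ccr7 stood at 3.83, 3.44 and 3.77 CPM in islet and 1.42, 0 and 0.706 CPM in fat (log2 difference 2.32, edgeR adjusted p = 0.173), and Flt3 had a log2 difference of 0.78 (0.638). The part of these cells in the result was not tested.

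Il6, a cytokine of inflammation and of tissue repair, stood at 2.42, 0 and 3.64 CPM in islet and at 19.3, 13.003 and 14.8 CPM in fat. It fell by 2.85 ± 0.79 on the log2 scale (edgeR adjusted p = 0.0345), so the ligand and both chains of its receptor were all lower in islet. It missed the threshold when islet replicate 2 (edgeR adjusted p = 0.0879) or any fat replicate was left out (0.148, 0.0902 and 0.103). Its log2 difference was -3.54 without islet replicate 6 and -2.19 without islet libraries 2 and 4. The part of the fibroblast RNA of the fat libraries in this result was not tested. Il16, which encodes a precursor cleaved to a ligand of CD4, stood at 38.1, 48.2 and 75.98 CPM in islet and 111, 126 and 117 CPM in fat and fell by 1.12 ± 0.29 (edgeR adjusted p = 0.0267). It had 0.0728 without islet replicate 2 and 0.0860, 0.0905 and 0.0862 without fat replicates 2, 4 and 6. Exons of Stard5 on the opposite strand cover 15.3% of its exonic length.

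Il10 and Il15 were high in islet library 6 and low in the other two. Il10, the ligand of Il10ra, stood at 10.1, 4.30 and 33.3 CPM in islet and at 35.5, 36.5 and 47.9 CPM in fat. All islet libraries were below all fat libraries, with an edgeR adjusted p = 0.177. It was lower with the replicate number as a block (edgeR adjusted p = 0.0434), with no filter (0.00332) and without islet replicate 6 (0.00166), within 0.00166 to 0.369 over its alternatives. Il15 stood at 2.22, 2.01 and 14.3 CPM in islet and 13.05, 16.5 and 12.7 CPM in fat (edgeR adjusted p = 0.311). Without islet replicate 6 its log2 difference was -2.72 (edgeR adjusted p = 0.00228, and 0.00228 to 0.533 with any 1 library left out). Without islet libraries 2 and 4 it was -0.05. Il4i1, an enzyme gene induced by IL-4 rather than an interleukin, showed the same islet order, at 1.21, 1.15 and 19.8 CPM against 2.65 to 4.24 CPM in fat (edgeR adjusted p = 0.491). Its log2 difference was 2.44 without islet libraries 2 and 4 and -1.53 without islet replicate 6. Its edgeR adjusted p was 0.188 to 0.722 with any 1 library left out. Exons of Tbc1d17 cover 83.9% of its exonic length. Heat shock RNA ran the other way in these 3 islet libraries, and its part in the result was not tested.

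**Figure D4:**
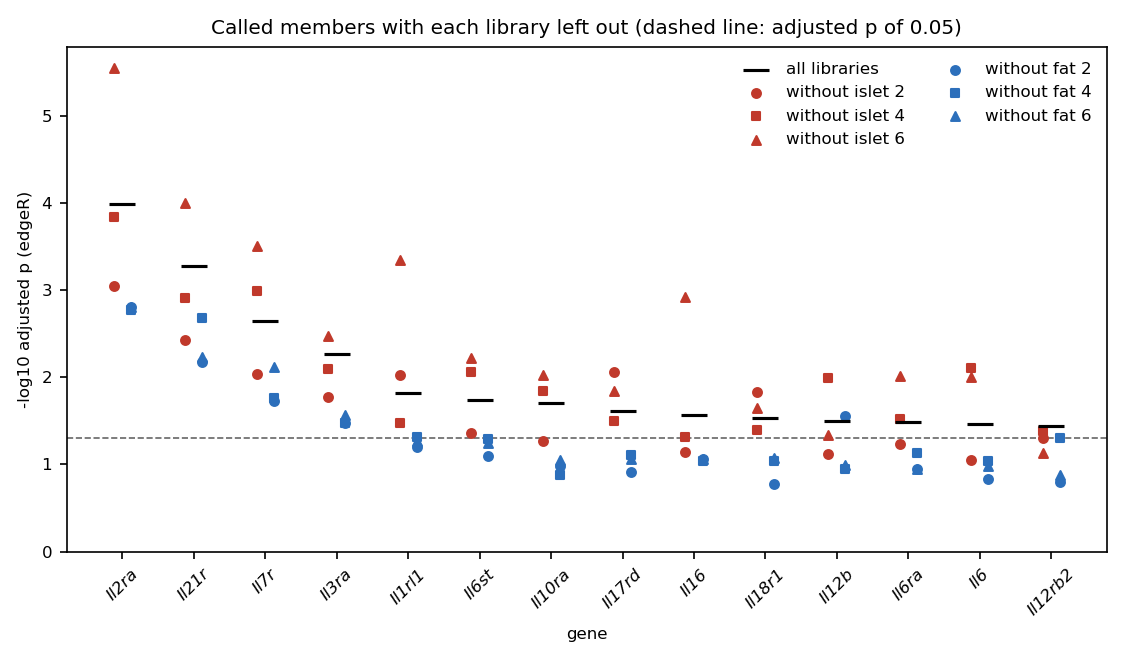
The -log10 adjusted p (edgeR) of the 14 called members with all libraries (black bars) and with each library left out in turn (red: islet, blue: fat). Il2ra, Il21r, Il7r and Il3ra stay above the dashed line at an adjusted p of 0.05 in every fit, and the other 10 drop below it in at least 1.

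The remaining members were sparse. The 25 members with counts but no test had 1 to 135 counts over the 6 libraries, and outside Il27ra, Il2rb, Il1bos, Il27 and Il12rb1 the other 20 had at most 17. Il27, a subunit that pairs with Ebi3, had 1, 0 and 13 counts in islet and 9, 3 and 8 counts in fat. Il1bos, a transcript antisense to Il1b, had 18, 2 and 0 counts in islet and 10, 7 and 0 in fat, and its exons overlap those of Il1b. The 23 members without a count include the ligands Il3, Il17a, Il17b, Il20, Il22, Il24, Il25, Il31, Il1f5, Il1f6, Il1f8 and Il1f10, and the receptors Il11ra2, Il20ra and Il22ra1, besides those named above. A count of 0 allows up to 3 counts per library, and this floor covers counting error only.

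A list of 36 genes that work with this family under other names had 32 tested members, of which 5 were higher in islet, 2 lower and 25 did not pass (8.97% and 10.5% of all genes tested). Among 10 tested partner chains and ligands, 2 rose (Clcf1 and Csf2ra), 1 fell (Tslp) and 7 did not pass. Clcf1, a ligand of the IL-6 family, stood at 12.5, 11.8 and 35.7 CPM in islet and 1.32, 0.796 and 1.76 CPM in fat and rose by 3.93 ± 0.61 (edgeR adjusted p = 0.00288), with 3.20 without islet replicate 6 and 4.68 without islet libraries 2 and 4. Tslp, the ligand shared by Il7r and Crlf2, had no count in islet and stood at 5.67, 9.55 and 7.65 CPM in fat. It was at least 12.2-fold lower in islet when islet libraries were set to 3 counts each (adjusted p = 0.00342, edgeR). So the 2 receptor chains for TSLP had counts in every library of both tissues, and Tslp itself had counts only in fat. Fibroblast and adipocyte RNA was also higher in the fat libraries, and its part in the Tslp result was not tested. Csf2ra, the private chain for GM-CSF, was higher by 0.80 ± 0.23 (edgeR adjusted p = 0.0420) and was named after its value was seen. It missed the threshold with RLE size factors, no filter, the replicate number as a block or no mitochondrial ribosomal RNA, and without islet replicate 2 or 4 or any 1 fat library.

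Among 22 tested signalling genes, 3 rose (Irak2 and Cish among them), 1 fell (Socs3) and 18 did not pass, among them the 4 JAK kinases. Jak2 was higher with no filter and Jak3 lower in DESeq2, and both were named after their values were seen. Cish, a feedback inhibitor induced by STAT5, stood at 22.2, 26.7 and 12.4 CPM in islet and 5.39, 2.52 and 3.76 CPM in fat and rose by 2.37 ± 0.46 on the log2 scale (edgeR adjusted p = 0.00814, and 0.0516 without fat replicate 4), with 1.58 without islet libraries 2 and 4. Irak2, which encodes an IRAK protein downstream of IL-1 family and Toll-like receptors, stood at 158, 77.1 and 88.4 CPM in islet and 27.0, 28.5 and 23.3 CPM in fat (edgeR adjusted p = 0.00298). Socs3, the feedback inhibitor of gp130 that STAT3 induces, stood at 205, 98.6 and 325 CPM in islet and 581, 579 and 897 CPM in fat and fell by 1.71 ± 0.43 (edgeR adjusted p = 0.0257). It had 0.0847 without islet replicate 2 and 0.0696, 0.0587 and 0.100 without fat replicates 2, 4 and 6. Without fat replicate 4, 3 genes of the list were higher and 1 lower (3.66% and 5.39% of all genes tested). Without islet replicate 6, 7 were higher and 7 lower (12.7% and 15.6%).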

How the data were processed

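The values are raw read counts per gene, which the authors deposited without normalisation. The submitters' processing notes name STAR, featureCounts, Subread 1.6.4 and GRCm38. The sources used here give neither the annotation nor the strand setting. Per the labels' protocols, 10 ng of total RNA went into stranded, random-primed libraries. Genes were kept by filterByExpr, scaled by TMM and tested as islet minus fat with edgeR 4.0.16 (robust quasi-likelihood, R 4.3.3), with adjustment over all 12152 genes tested. SE values are the log2 difference divided by the root of the F statistic. Alternatives used DESeq2 1.42.0, limma 3.58.1 (voom), RLE factors, other filters, no mitochondrial ribosomal RNA, the replicate number as a block and single libraries left out. The fit without islet libraries 2 and 4 was added after the data were seen. It leaves islet library 6 alone, so its p values and calls are not given. The scripts were tested on simulated data.

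Positions, exon lengths and overlaps come from GENCODE M21 (GRCm38). Promoter entries of RefSeq (GRCm38.p6) matched 58 of the 75 members by symbol. Members and lists were chosen with earlier results of these data known. Named were all called members, up to 3 others per role group by mean CPM, the 5 untested members with most counts and up to 4 pathway genes per direction by adjusted p, with Csf2rb. The values of 1 gene that this rule selects are not reported here. The fit behind the printed values has no block. The labels give same-numbered libraries 1 batch label and the design text calls the material autologous, so a fit with the number as a block was run beside it. Correlations of deviations from the tissue mean, across genes, were 0.046, 0.063 and -0.008 for libraries sharing number 2, 4 and 6, and -0.142 to 0.103 for other pairs, so the data did not set same numbers apart. Nothing else shows separate cultures or animals within a tissue, so p values measure the spread between these libraries.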

Additional observations from a re-analysis of the deposited data

How the results depend on the processing

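Il2ra, Il7r, Il21r and Il3ra kept their direction in all 14 alternatives and their call in the 13 that were planned. Leaving out 1 library moved the members higher in islet between 3 and 8 and those lower between 1 and 11, and in the list outside the family between 3 and 7 higher and 1 and 7 lower. Over all genes tested, the same fits called 3.66% to 12.7% higher and 4.71% to 15.6% lower. Leaving out a fat library gave the fewest lower in islet, for the members and over all genes tested. Those shares were 4.71%, 5.39% and 5.96% without fat replicates 2, 4 and 6, against 8.39%, 11.7% and 15.6% without islet replicates 2, 4 and 6. The cause was not tested. For the list outside the family, 8 genes were higher and 4 lower in DESeq2 (11.8% and 14.3% of all genes tested). With no filter 5 were lower (8.24%) and with the 1 CPM filter 4 (11.7%), beside 8.97% higher and 10.5% lower with all libraries. With same-numbered libraries paired in a block, 5 members were higher and 9 lower, Il12rb2 lost its call (adjusted p = 0.0683) and Il10 gained one (0.0434). In the list outside the family, Csf2ra lost its call and Lifr gained one.

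Reversals touched only genes that had not passed, and none passed after reversing. Il17ra stood at -0.0155 with RLE factors, -0.0144 in DESeq2, -0.0179 with no filter, -0.0299 with the block, -0.004 without mitochondrial ribosomal RNA, -0.19 and -0.04 without islet replicates 2 and 6 and -0.0065 and -0.05 without fat replicates 2 and 4, and leaving out 1 library moved it between -0.19 and 0.29. Il18rap stood at -1.04 in voom, -0.0004 with no filter, -0.31 with the block, -0.73 and -0.09 without islet replicates 4 and 6 and -0.28 without fat replicate 6, within -0.73 to 0.62 over single libraries left out. Il20rb stood at 0.35 without islet replicate 4 (-1.29 to 0.35 over single libraries) and 0.74 without islet libraries 2 and 4, where Il4ra stood at 0.15. Il4i1 stood at -0.0744 with the block and -1.53 without islet replicate 6 (-1.53 to 1.63 over single libraries), where Csf2rb stood at -0.22 (-0.22 to 1.29). Depth limits the 25 detected members that were not tested.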
